A study of Mus musculus with 11 samples.

Results

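The centrosome is the microtubule-organizing centre of animal cells. A pair of centrioles forms its core, built on a cartwheel and copied under the kinase Plk4, and a surrounding pericentriolar material nucleates microtubules. In the male germ line centrosomes form the poles of the meiotic spindles, and in spermatids the centrioles template the flagellum and join head to tail, before rodent sperm lose much of this structure.

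10 centrosome and centriole genes of the mouse testis were taken by symbol from the 24411 genes of the count table, and all 10 passed the filter on low counts in every comparison. Cdk5rap2, Pcnt and Cep192 encode scaffolds of the pericentriolar material. Cep152, Plk4, Sass6 and Cep135 encode centriole duplication proteins, and Cntrob encodes a protein of the daughter centriole. Nin encodes ninein, which anchors microtubules at the subdistal appendages. Ccsap encodes a centriole, cilia and spindle associated protein, which binds microtubules bearing polyglutamylated tubulin. The members share a function, but they were listed with results of these libraries known. Ccsap is among them because the study named it among its top up- and downregulated genes of Irp1-/- against WT in these same libraries. The change itself was small, a log2 fold change of -0.21. Its values in that comparison are a description and no independent evidence.

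Polyadenylated RNA of whole testes was sequenced from mice 20 weeks old: 4 WT, 4 Irp1-/- and 3 Irp2-/- samples. Irp1-/- mice carried a whole-body knockout of Aco1, the gene of iron regulatory protein 1, on a C57Bl/6J background, and the study's methods name their WT littermates as controls. Irp2-/- mice lacked Ireb2, the gene of iron regulatory protein 2, and the breeding of that line is not described in the sources used here. All testis cells were read together, so fewer cells of a type and less RNA per cell cannot be told apart. The total count per sample was between 15902473 and 22451417. Levels are given in CPM, the share of a gene in the reads of its library after library sizes were scaled by the TMM method, which assumes that most genes do not differ. A difference was called at an adjusted p under 0.05 in edgeR's quasi-likelihood test, Benjamini-Hochberg adjusted over all genes tested, and all adjusted p-values below come from that test unless DESeq2 is named. Aco1 ranged from 7.94 to 9.15 CPM in Irp1-/- and from 9.78 to 12.9 CPM in WT testes, so reads on the targeted gene were lower but not lost. Ireb2 lay between 61.6 and 63.0 CPM in Irp2-/- and between 131 and 144 CPM in WT testes. The testis markers were present. Summed over 12 genes each, spermatocyte markers lay between 2436 and 2532 CPM and elongating spermatid markers between 22467 and 28066 CPM over all 11 samples, while the 8 epididymis markers summed to at most 5.09 CPM.

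The members that differed between Irp1-/- and WT testes were Ccsap and Cdk5rap2. Ccsap lies on chromosome 8 of mm10 (GRCm38) from 123839973 to 123860209, and Cdk5rap2 on chromosome 4 from 70216855 to 70410435. Their RefSeq start windows in GRCm38.p6 of 300 bases, most of it before the start, are shown so that the sequence at which these transcripts begin can be read. For Ccsap a pair of start windows is shown, and a count per gene does not separate reads from different starts. On the minus strand the gene reaches 123860209, past both windows, so a start at that end is not shown. Capitals mark the motif CCAAT or its reverse complement, and TGACGTCA, GTTGCC and CCAAT were searched on both strands.
Ccsap, chr8:123858826-123859125, minus strand: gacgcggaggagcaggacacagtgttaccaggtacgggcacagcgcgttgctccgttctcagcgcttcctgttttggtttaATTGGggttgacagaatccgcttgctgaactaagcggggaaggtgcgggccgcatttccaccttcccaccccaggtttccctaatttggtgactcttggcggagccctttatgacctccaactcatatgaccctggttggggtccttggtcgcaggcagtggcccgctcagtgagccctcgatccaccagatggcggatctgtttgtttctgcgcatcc
Ccsap, chr8:123859419-123859718, minus strand: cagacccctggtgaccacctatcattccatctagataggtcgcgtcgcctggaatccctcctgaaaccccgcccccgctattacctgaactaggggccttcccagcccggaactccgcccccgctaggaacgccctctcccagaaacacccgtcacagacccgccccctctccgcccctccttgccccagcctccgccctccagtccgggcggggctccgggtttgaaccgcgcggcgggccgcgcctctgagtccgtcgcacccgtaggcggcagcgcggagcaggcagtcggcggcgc
Cdk5rap2, chr4:70410386-70410685, minus strand: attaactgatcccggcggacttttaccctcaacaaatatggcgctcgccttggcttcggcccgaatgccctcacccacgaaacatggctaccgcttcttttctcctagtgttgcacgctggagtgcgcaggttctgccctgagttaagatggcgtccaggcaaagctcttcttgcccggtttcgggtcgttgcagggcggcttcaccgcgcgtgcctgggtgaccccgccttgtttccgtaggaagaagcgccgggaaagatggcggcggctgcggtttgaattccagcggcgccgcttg

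The first Ccsap window held 1 CCAAT motif, on the reverse strand, and 17 CpG, with 57.7% G or C. The second held 31 CpG at 70.0% G or C, and the Cdk5rap2 window held 28 CpG at 60.0%. None of the 3 motifs was found in these last windows, and TGACGTCA and GTTGCC were not found in the first. Among 32851 start windows of the same length, 37.4% held CCAAT, 1.79% held TGACGTCA and 12.5% held GTTGCC, and the median number of CpG was 7 (quartiles 3 and 20). All 3 windows were thus above the median in CpG, and 2 of them above the upper quartile.

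In WT testes the members spanned a wide range of transcript level. Per kilobase of exon, Ccsap was highest with 43.0 ± 0.931 CPM per kb (SD, n = 4), followed by Cdk5rap2 with 24.9 ± 0.770 CPM per kb (SD, n = 4). Plk4, the kinase that starts centriole duplication, stood at 16.4 ± 0.436 and Sass6, the cartwheel protein, at 14.4 ± 0.606 CPM per kb (SD, n = 4). Pcnt had 10.2 ± 0.129 and Cep192 had 7.01 ± 0.312 CPM per kb (SD, n = 4). Cntrob with 5.06 ± 0.297 and Cep135 with 4.60 ± 0.292 CPM per kb (SD, n = 4) overlapped and were the only neighbours in this order that did. Cep152, which recruits Plk4, had 2.57 ± 0.284, and Nin had 0.106 ± 0.0107 CPM per kb (SD, n = 4). Nin rested on 24 to 63 reads per sample, against 199 to 8458 for the other members, so its values carry the largest counting error. Lengths are the summed exons of GENCODE M21, and a transcript that uses only part of them reads too low on this scale.

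**Figure D1:**
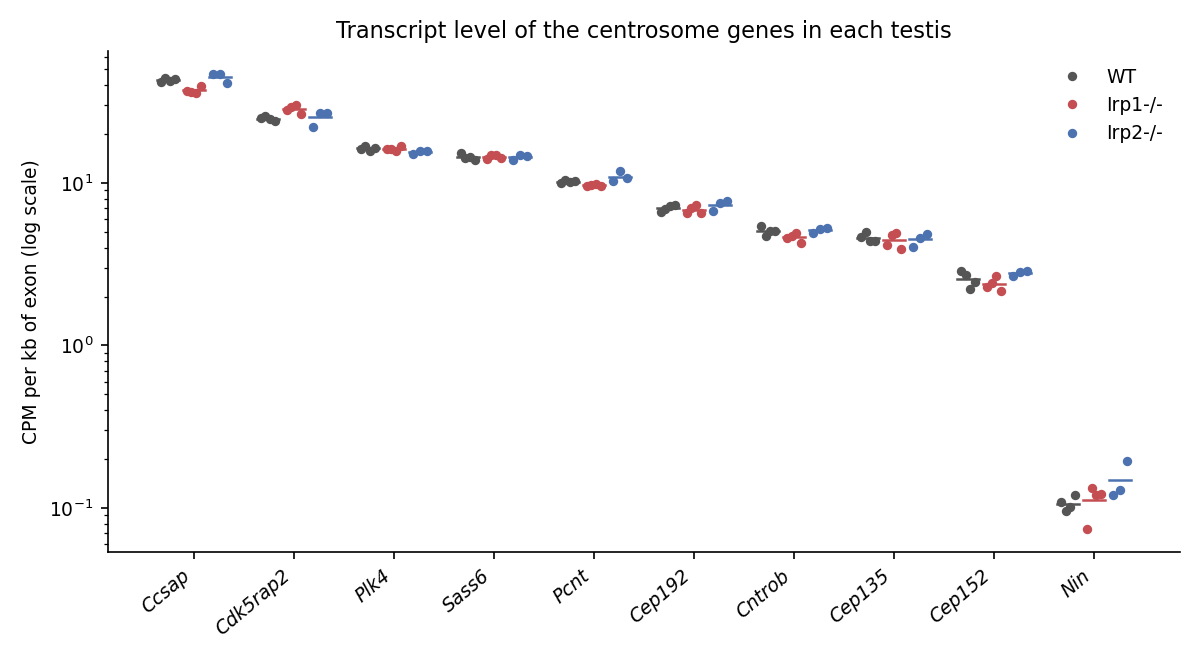
Level of each centrosome gene per kilobase of exon (CPM per kb, log axis) in every testis, ordered by the WT mean, with 1 point per sample and a bar at the genotype mean. Ccsap and Cdk5rap2 stand at the top in all 3 genotypes and Nin lies far under the rest, at 0.106 CPM per kb in WT.

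Irp1-/- was compared with WT to ask which testis transcripts change when iron regulatory protein 1 is absent. 2 of the 10 members were called, Ccsap lower and Cdk5rap2 higher, where 1.02% of the 16002 genes tested were called, 0.581% higher and 0.444% lower. Since Ccsap was picked on this comparison, nothing is read from the count of 2 of 10 against that share. The other 8 members did not pass the test. In DESeq2 the same 2 members were called.

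Ccsap measured 116, 122, 118 and 120.0 CPM in WT replicates 1 to 4, and 101, 101, 99.7 and 109 CPM in Irp1-/- replicates 1, 2, 6 and 7. Every Irp1-/- testis was under every WT testis, and replicate 7 was the nearest to WT. The mean was 103 ± 4.20 CPM (SD, n = 4) in Irp1-/- against 119 ± 2.58 CPM (SD, n = 4) in WT. Ccsap fell by 13.8% (95% interval of the change -18.7% to -8.59%), a log2 fold change of -0.21 (adjusted p = 0.00651, standard error 0.041). The call was kept in all 15 alternatives, with a log2 fold change between -0.24 and -0.20 and an adjusted p between 0.000565 and 0.0479 in edgeR or DESeq2.

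Cdk5rap2 measured 327, 336, 322 and 312 CPM in WT replicates 1 to 4, and 367, 381, 392 and 344 CPM in Irp1-/- replicates 1, 2, 6 and 7. All Irp1-/- testes were above all WT testes, and replicate 7 was again the nearest to WT. The mean was 371 ± 20.8 CPM (SD, n = 4) in Irp1-/- against 324 ± 10.03 CPM (SD, n = 4) in WT. The rise was 14.3% (95% interval 7.84% to 21.1%), a log2 fold change of 0.19 (adjusted p = 0.0143, standard error 0.041). This call depended on single libraries and on the samples fitted. The adjusted p in edgeR was 0.0536 without WT replicate 3, 0.0675 without WT replicate 4, 0.0566 without Irp1-/- replicate 1, 0.0683 without Irp1-/- replicate 6, and 0.108 in a fit of all 11 samples. Without Irp1-/- replicate 6, whose column name alone carries the letter R where all others carry L, the log2 fold change was 0.16.

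The reads of Cdk5rap2 per read of Ccsap, a ratio within each library that needs no scaling, were 2.82, 2.76, 2.73 and 2.60 in WT replicates 1 to 4. In Irp1-/- replicates 1, 2, 6 and 7 they were 3.61, 3.78, 3.94 and 3.16. The groups did not overlap, with means of 3.62 ± 0.335 and 2.73 ± 0.0931 (SD, n = 4 each). Cdk5rap2 was already higher and Ccsap already lower in every Irp1-/- testis, so this separation follows from theirs and adds no evidence. No test was run on the ratio. In Irp2-/- replicates 1 to 3 it was 2.22, 2.70 and 3.08, a range that holds all WT values.

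**Figure D2:**
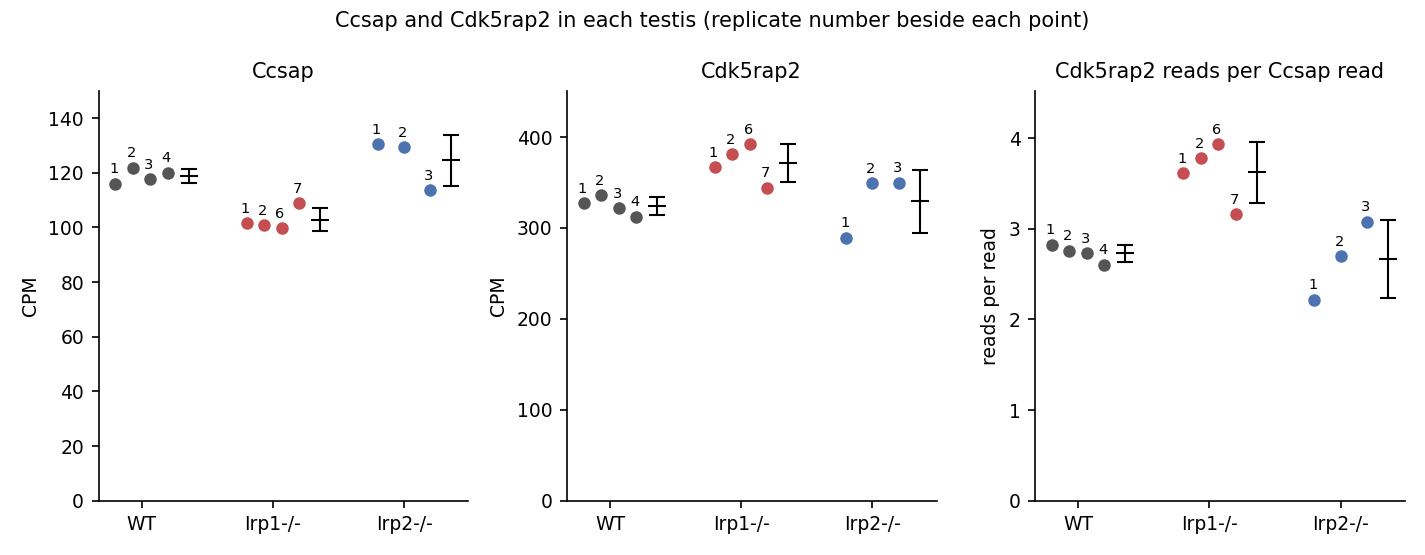
CPM of Ccsap and of Cdk5rap2, and reads of Cdk5rap2 per read of Ccsap, in every testis by genotype, with replicate numbers and the mean ± SD beside the points. Ccsap lies between 99.7 and 109 CPM in Irp1-/- and from 116 CPM upwards in WT, and the ratio is 3.16 or more in Irp1-/- and at most 2.82 in WT. The separation of the ratio follows from those of Ccsap and Cdk5rap2.

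Among the other pericentriolar scaffolds, Pcnt averaged 118 ± 1.46 CPM (SD, n = 4) in Irp1-/- against 124 ± 1.57 CPM (SD, n = 4) in WT. Its ranges, 117 to 119.7 and 122 to 126 CPM, did not overlap, but its log2 fold change of -0.07 did not pass the test (95% interval -0.15 to 0.00, adjusted p = 0.443). Groups did not overlap for 6.59% of all genes tested, and for 3 of the 10 members, Ccsap, Cdk5rap2 and Pcnt. Cep192 had 85.5 ± 4.82 against 87.5 ± 3.90 CPM (SD, n = 4 each), with overlapping ranges.

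The duplication genes did not differ detectably. Plk4 had 111 ± 3.49 CPM in Irp1-/- and 112 ± 2.99 CPM in WT (SD, n = 4 each), and Sass6 had 88.9 ± 2.57 and 88.2 ± 3.71 CPM. The 95% interval of the change was -6.34% to 5.10% for Plk4 and -5.39% to 6.83% for Sass6, so changes of the size of those of Ccsap and Cdk5rap2 lay outside them. Cep135, which ties the cartwheel to the centriole wall, had 32.0 ± 3.42 and 33.1 ± 2.10 CPM, and Cep152 had 13.8 ± 1.27 and 14.8 ± 1.64 CPM. Their intervals, -11.8% to 6.46% and -17.7% to 5.66%, were wider. Cntrob had 30.8 ± 1.89 CPM in Irp1-/- and 33.7 ± 1.98 CPM in WT, a log2 fold change of -0.13. Its unadjusted p was 0.0334 in edgeR and its adjusted p 0.351. The 95% interval of its change, -15.9% to -0.76%, held a fall of the size of that of Ccsap. Nin had 1.91 ± 0.442 and 1.81 ± 0.181 CPM, and its interval of -21.2% to 40.9% leaves its difference undetermined at this depth.

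**Figure D3:**
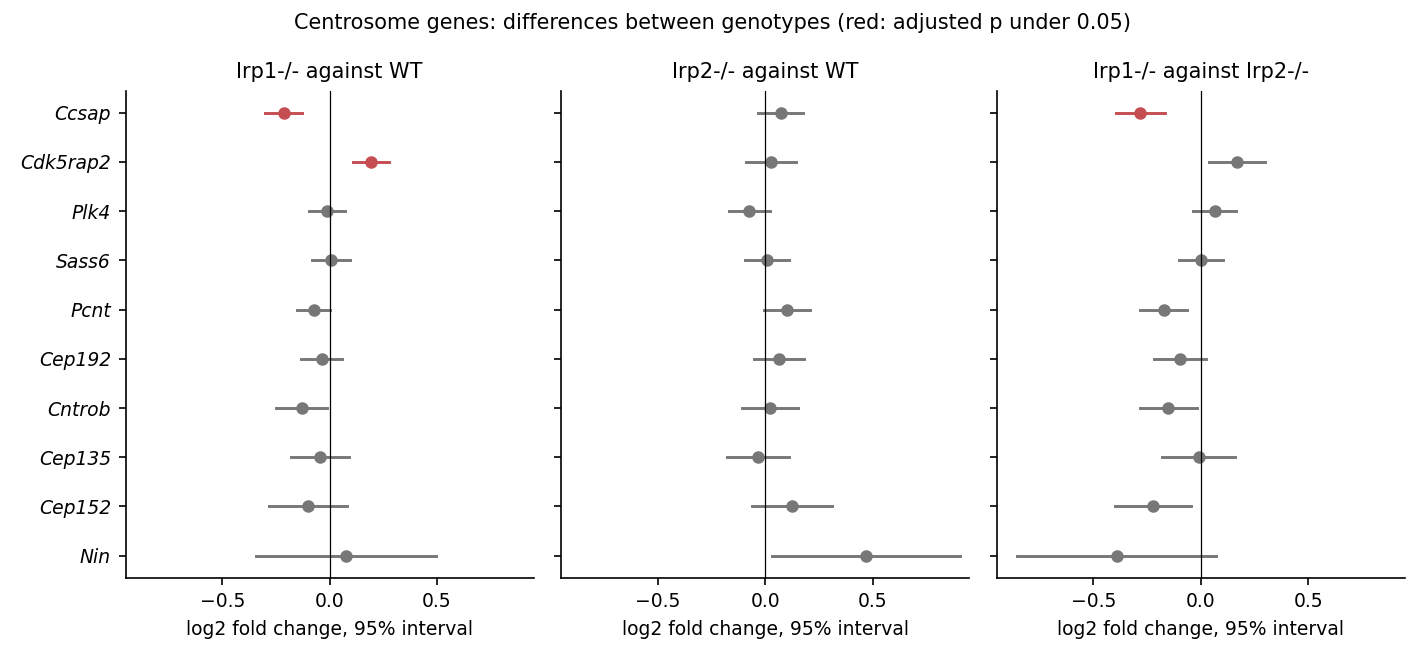
Log2 fold change of each centrosome gene with its 95% interval in the 3 comparisons, on 1 common axis, red where the adjusted p was under 0.05. Ccsap is red against both WT and Irp2-/-, at -0.21 and -0.28, Cdk5rap2 only against WT, at 0.19, and no gene is red in Irp2-/- against WT.

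Marker lists of other testis cells were set beside these values. The 12 Sertoli cell markers, all with reads, summed to between 1501 and 1714 CPM in Irp1-/-, between 1382 and 1473 CPM in WT and between 1341 and 1538 CPM in Irp2-/- testes. 11 of the 12 were higher in Irp1-/- than in WT, and 1 of them, Clu, was called (log2 fold change 0.16, adjusted p = 0.0473). 6 of the 12 had an unadjusted p under 0.05 in edgeR, all 6 higher, beside 12.1% of all genes tested. The 12 spermatocyte markers summed to 2436 to 2467 CPM in Irp1-/- and to 2509 to 2532 CPM in WT testes, with none called in edgeR and 3 lower at an unadjusted p under 0.05, and to between 2451 and 2530 CPM in Irp2-/-. Leydig cell markers, 10 of 10 with reads, summed to between 1053 and 1256 CPM in Irp1-/-, between 789 and 1131 CPM in WT and between 817 and 1070 CPM in Irp2-/- testes. All Sertoli sums of Irp1-/- lay above all those of WT, and all spermatocyte sums of Irp1-/- lay under all those of WT. The Leydig sums of Irp1-/- and WT overlapped. None of the 9 tested Leydig markers was called between these genotypes in edgeR, with 2 higher at an unadjusted p under 0.05. The part of these cell types in the differences of Ccsap and Cdk5rap2 was not tested.

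Cdk5rap2 lies on the chromosome of the targeted gene, 30.1 Mb from Aco1. Of the 201 tested genes between Aco1 and Cdk5rap2, 14 were called in Irp1-/- against WT, 8 higher and 6 lower, or 6.97%. Of the 702 tested genes of chromosome 4 beyond Cdk5rap2, 3 or 0.427% were called. The 5 nearest tested genes on each side of Cdk5rap2 had -0.02 as their median log2 fold change, 4 higher and 6 lower. Only Aldoart1 was called among them, an aldolase retrogene expressed in male germ cells, with a log2 fold change of -0.19 (adjusted p = 0.0341), opposite in sign to Cdk5rap2. The absence of Irp1 and chromosome 4 sequence inherited together with the targeted allele cannot be told apart for Cdk5rap2 in this design. For Ccsap, which lies on chromosome 8, none of the 5 nearest tested genes on each side was called in edgeR, and their log2 fold changes lay between -0.12 and 0.28. 1 of these 10 neighbours, Afg3l1, had an unadjusted p under 0.05 in edgeR (0.0290), with a log2 fold change of -0.12.

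**Figure D4:**
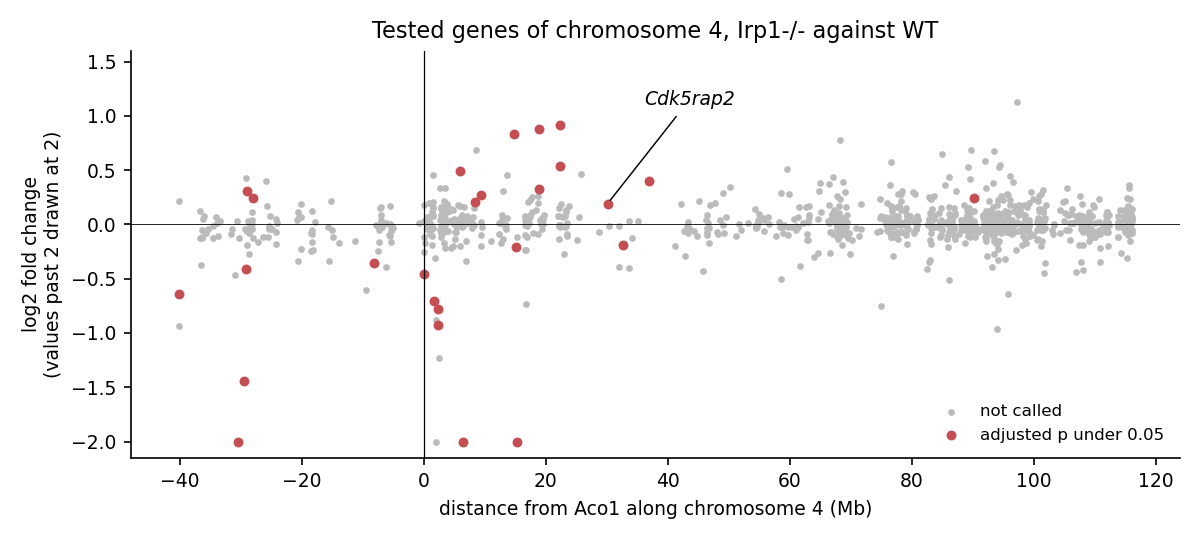
Log2 fold change in Irp1-/- against WT of every tested gene of chromosome 4, by distance from Aco1 in Mb, red where the adjusted p was under 0.05. Called genes lie on both sides of Aco1, with 14 of 201 called between it and Cdk5rap2, and 3 of 702 beyond Cdk5rap2.

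GENCODE M21 places the protein-coding locus Gm20388 and the pseudogene Gm4342 on the strand opposite to Ccsap, the pseudogene Ywhaq-ps3 on the strand of Cdk5rap2, the antisense gene 1700094J05Rik across Pcnt and Trmt13 across part of Sass6. 1700094J05Rik and Trmt13 had 875 and 1610 reads over all 11 samples, and the others were not analysed here. The library kit keeps the strand, but whether the counting used it is not stated, so reads of opposite genes could be part of these counts.

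Irp2-/- was compared with the same 4 WT testes, so the comparisons share their controls. None of the 10 members was called in edgeR, where 1.21% of the 16154 genes tested were called, 0.371% higher and 0.842% lower. Nin alone had an unadjusted p under 0.05 in edgeR, and DESeq2 gave no member at either level. Ccsap measured 131, 129 and 114 CPM in Irp2-/- replicates 1 to 3. Replicates 1 and 2 were above every WT testis and replicate 3 under every one. The mean was 125 ± 9.42 CPM (SD, n = 3), a change of 5.08% (95% interval -2.43% to 13.2%, adjusted p = 0.764), so a fall of the size seen in Irp1-/- lay outside the interval. Cdk5rap2 measured 289, 349 and 349.6 CPM, with replicate 1 under and the others above all WT testes. Its mean was 329 ± 34.9 CPM (SD, n = 3), a change of 1.76% (95% interval -6.13% to 10.3%, adjusted p = 0.956).

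The spread of the Irp2-/- testes was larger than that of WT for both genes. The coefficient of variation of Ccsap was 7.56% in Irp2-/-, 4.08% in Irp1-/- and 2.17% in WT, and that of Cdk5rap2 was 10.6%, 5.59% and 3.09%. Pcnt had 133 ± 10.6 CPM (SD, n = 3) in Irp2-/-, with 145 CPM in replicate 2, and its change of 7.32% did not pass the test (95% interval -0.24% to 15.4%, adjusted p = 0.555). Plk4 had 106 ± 2.57 CPM (SD, n = 3) and was the only member whose ranges did not overlap with WT, 103 to 108.0 against 108.2 to 115 CPM, where 9.31% of all genes tested did not overlap (log2 fold change -0.07, adjusted p = 0.714). Nin had 2.52 ± 0.703 CPM (SD, n = 3), with 3.33 CPM in replicate 3, and a log2 fold change of 0.47 (adjusted p = 0.467) that was 0.22 without that replicate. Cep192, Cep152, Cep135, Sass6 and Cntrob had log2 fold changes between -0.03 and 0.12, with adjusted p-values of 0.765 or more.

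The knockouts were compared directly to ask whether the members differed between them. 1 of the 10 members, Ccsap, was called and was lower in Irp1-/-, where 4.69% of the 16281 genes tested were called, 2.92% higher and 1.76% lower. This comparison uses the same Irp1-/- libraries on which Ccsap was picked. Its ranges, 99.7 to 109 CPM in Irp1-/- and 114 to 131 CPM in Irp2-/-, did not overlap. The log2 fold change of Ccsap between the knockouts stood at -0.28 (adjusted p = 0.00312, 95% interval -0.40 to -0.17, standard error 0.055), and the adjusted p lay between 1.15e-05 and 0.0412 over its 14 alternatives. Cdk5rap2 differed by 0.17 on the log2 scale (95% interval 0.04 to 0.30, adjusted p = 0.147), with ranges of 344 to 392 and 289 to 349.6 CPM that overlapped. Its rise against WT in Irp1-/- is thus not shown to differ from the change in Irp2-/-. Without Irp2-/- replicate 1 the log2 fold change of Cdk5rap2 was 0.09.

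Pcnt came closest to the threshold among the rest, with a log2 fold change of -0.17 (adjusted p = 0.0638). Its ranges were 117 to 119.7 CPM in Irp1-/- and 124 to 145 CPM in Irp2-/- and did not overlap. The adjusted p of Pcnt in edgeR was 0.0160 without Irp2-/- replicate 1 and 0.0346 in a fit of all 11 samples. Ranges did not overlap for 3 of the 10 members, Ccsap, Pcnt and Plk4, and for 15.1% of all genes tested. Cep152 and Cntrob had unadjusted p-values of 0.0172 and 0.0266 in edgeR and adjusted p-values of 0.173 and 0.220, both lower in Irp1-/- on average. Of the 12 Sertoli cell markers 4 were called, all higher in Irp1-/-, beside 4.69% of all genes, and by their fitted values 10 were higher and 2 lower. None of these 4 was called against WT in either knockout. By fitted values all 4 were lower in Irp2-/- than in WT, and not all were higher in Irp1-/- than in WT. Clu was not among them (adjusted p = 0.274). Of the 9 tested Leydig cell markers 3 were called, all higher in Irp1-/-, with a median log2 fold change of 0.24 and 9 of 9 above 0. 1 round spermatid marker of 12 and 1 peritubular myoid marker of 8 were also called higher. The part of these cell types in the difference of Ccsap was not tested.

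Within genotypes the correlations between members ranged from -0.69 to 0.89. After the genotype mean was taken from each value of log2 (CPM + 0.5), 33 of the 45 pairs of members had a positive Pearson correlation over the 11 samples, with a median of 0.31. Cdk5rap2 and Cep135 were the closest pair at 0.89. Ccsap went against most of the others, with a negative correlation in 7 of its 9 pairs, -0.60 with Cdk5rap2 and -0.69 with Cntrob. With genotype means left in, it was -0.81 with Cdk5rap2 but 0.40 with Cntrob, so the sign can depend on this step. These values come from the same 11 libraries and share their depth and scaling. Pairs of other genes were not counted, so the positive share is not shown to be particular to centrosome genes.

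Over the 11 samples and 14976 genes with at least 1 CPM on average, the genes whose level ran most like that of Ccsap were Ppp1r2, 1700025M24Rik and Wnt3, with Pearson correlations of 0.94, 0.93 and 0.93. With genotype means taken out the correlations were 0.71, 0.74 and 0.73. Wnt3, a secreted signalling ligand, lay between 28.2 and 32.5 CPM in Irp1-/-, between 37.3 and 40.7 CPM in WT and between 36.1 and 44.1 CPM in Irp2-/- testes. It was called lower in Irp1-/- than in WT, with a log2 fold change of -0.37 (adjusted p = 0.000400). Ppp1r2, an inhibitor of protein phosphatase 1, ranged from 145 to 157 CPM in Irp1-/- and from 159 to 169 CPM in WT, and was not called against WT (log2 fold change -0.14, adjusted p = 0.0830). 1700025M24Rik had a log2 fold change of -0.21 against WT (adjusted p = 0.176). These genes were picked for running like Ccsap over the same 11 samples, with genotype means left in. Lower values in Irp1-/- and positive correlations with genotype means taken out thus follow in part from that choice. They are a description and no independent evidence.

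A wider set of 141 centrosome genes in 7 lists by role, of which 140 were tested, held 1 called gene in Irp1-/- against WT, a share of 0.714% beside 1.02% of all genes tested. Spatc1, which encodes speriolin, a protein of the sperm centriole and neck, measured 199, 207, 189 and 195 CPM in WT replicates 1 to 4. In Irp1-/- replicates 1, 2, 6 and 7 it measured 171, 188, 159.9 and 171 CPM, all under WT although replicate 2 was close. It fell by 12.8% (log2 fold change -0.20, standard error 0.045, adjusted p = 0.0234). In edgeR the adjusted p of Spatc1 rose to 0.0557 to 0.142 without WT replicate 1, 2 or 4 or without Irp1-/- replicate 1 or 6, and 0.0630 in a fit of all 11 samples.

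The median log2 fold change of the 140 tested genes in Irp1-/- against WT was -0.03, beside 0.00 over all genes, with 97 of the 140 lower. Library sizes by total count alone gave 81 of 140 lower and a median of -0.02. Centriole duplication and elongation genes were lower in 26 of 32 (22 of 32 by total count), with a median of -0.04, and spindle pole kinases and motors in 17 of 21 under both scalings, with a median of -0.04. Linker and satellite genes were lower in 14 of 18 (11 by total count), and appendage and docking genes in 11 of 17 (9 by total count). The pericentriolar list was split, with 9 of 17 lower by TMM and 6 of 17 by total count, and so were the 19 glutamylation enzymes and cofactors, with 11 and 8 lower. The sperm neck list had 9 of 16 lower, and 8 by total count. Over all genes tested, 50.3% were lower by TMM and 44.5% by total count. 21 of the 140 genes, or 15.0%, had an unadjusted p under 0.05 in edgeR, 16 of them lower, beside 12.1% of all genes tested.

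In Irp2-/- against WT 1 of the 140 genes was called, a share of 0.714% beside 1.21% of all genes tested. Akap9, a scaffold of the centrosome and Golgi that binds the gamma-tubulin complex, measured 57.0, 51.3, 57.7 and 52.5 CPM in WT replicates 1 to 4 and 60.6, 64.2 and 66.9 CPM in Irp2-/- replicates 1 to 3. All Irp2-/- testes were above WT. The rise was 17.2% (log2 fold change 0.23, standard error 0.057, adjusted p = 0.0476). Only 5 of 14 alternatives kept this call, and its adjusted p was 0.0727 in DESeq2, 0.0531 with RLE normalization and 0.180 in a fit of all 11 samples. GENCODE M21 places Cyp51, with 22442 reads over all samples, on the strand opposite to Akap9 and overlapping it. In RefSeq Akap9 ends at 4080204, before the GENCODE span of Cyp51 begins at 4081145, so the overlap depends on the annotation. Reads of Cyp51 could be part of the Akap9 count only if the counting annotation held this overlap and the strand was not used. The pericentriolar list was higher in 15 of 17 genes (median 0.04), and the spindle pole list lower in 18 of 21 (median -0.05). By total count these were 15 of 17 and 16 of 21. The sperm neck list was lower in 12 of 16, and in 9 by total count. Over all 140 genes 75 were lower by TMM and 59 by total count. Of all genes tested, 51.3% were higher and 48.7% lower by TMM, and 59.5% higher and 40.5% lower by total count.

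**Figure D5:**
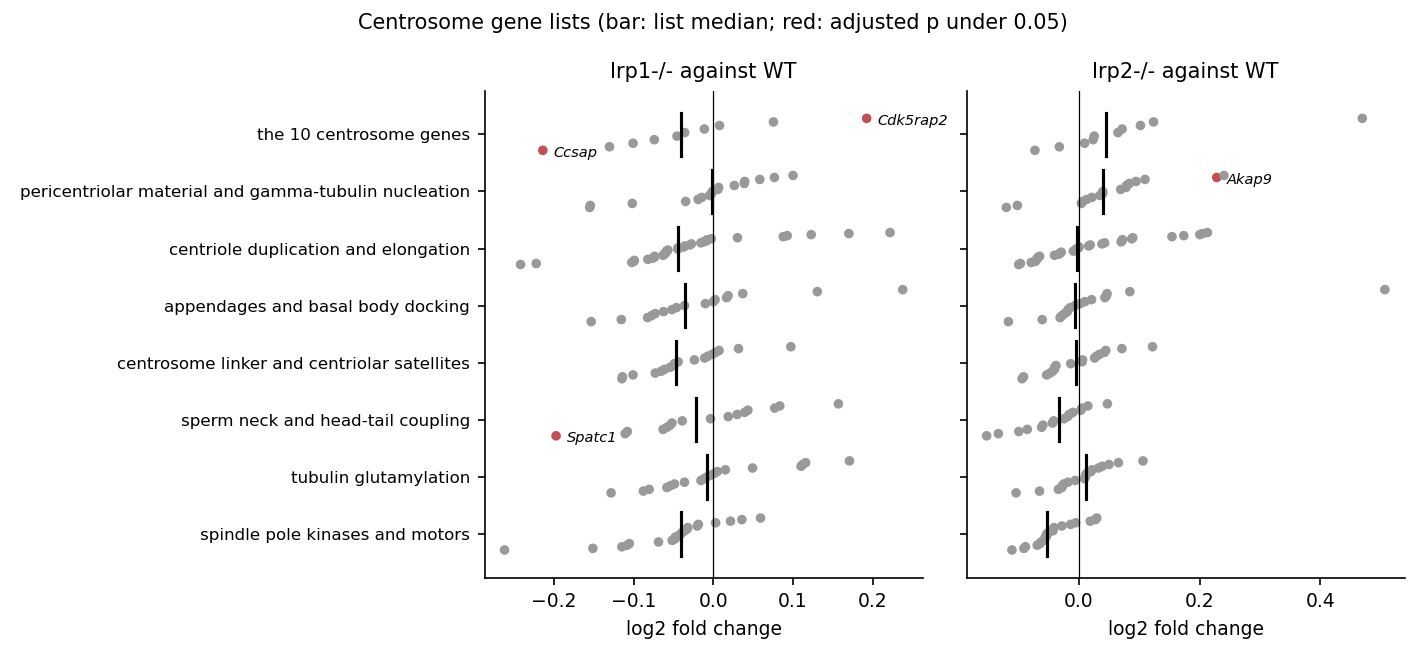
Log2 fold change of each tested gene of the 10 members and of the 7 centrosome lists, in Irp1-/- and in Irp2-/- against WT, with a bar at the list median and called genes in red. List medians lie between -0.05 and 0.00 in Irp1-/-, and the called genes beyond the members are Spatc1 in Irp1-/- and Akap9 in Irp2-/-.

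Between the knockouts 3 of the 140 genes were called, 2 lower and 1 higher in Irp1-/-. Their share of 2.14% was under the 4.69% of all genes tested. Sfi1, which encodes a centrin-binding centriole protein, measured 9.92, 11.4, 9.44 and 8.48 CPM in Irp1-/- replicates 1, 2, 6 and 7 and 11.3, 14.2 and 14.8 CPM in Irp2-/- replicates 1 to 3. The highest Irp1-/- testis was just above the lowest Irp2-/- testis. Its log2 fold change was -0.44 (adjusted p = 0.0199, standard error 0.11), and the adjusted p was 0.0520 to 0.127 without Irp1-/- replicate 1 or 7 or Irp2-/- replicate 2 or 3. Sfi1 overlaps Drg1 on the same strand, so reads shared by the pair are uncertain.

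Poc1b, a WD40 protein of the centriole wall, measured 97.2, 100.5, 105 and 103 CPM in Irp1-/- replicates 1, 2, 6 and 7 and 109, 117 and 115 CPM in Irp2-/- replicates 1 to 3. The genotypes did not overlap, and the log2 fold change was -0.17 (adjusted p = 0.0495, standard error 0.049). 5 of 14 alternatives kept the call, and the adjusted p was 0.0535 with RLE normalization and at most 0.221. Galnt4, with 517 reads over all samples, overlaps Poc1b on the same strand, so reads shared by that pair are uncertain too.

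Pmfbp1, a protein of the head-tail coupling apparatus of sperm, measured 892, 944, 919 and 868 CPM in Irp1-/- replicates 1, 2, 6 and 7 and 754, 831 and 809 CPM in Irp2-/- replicates 1 to 3. All Irp1-/- testes were above all Irp2-/- testes, and WT lay between 840.1 and 922 CPM. The log2 fold change was 0.18 (adjusted p = 0.0294, standard error 0.047), and 10 of 14 alternatives kept the call. The adjusted p was between 0.0774 and 0.0946 without Irp1-/- replicate 1, 2 or 6 or Irp2-/- replicate 1.

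Among the 10 nearest tested genes of Ccsap, Rab4a, a small GTPase of endosome recycling 29.5 kb away between gene midpoints, was called in Irp2-/- against WT. Its log2 fold change was 1.39 (adjusted p = 1.1e-07), while that of Ccsap was 0.07. The other 9 neighbours lay between -0.09 and 0.16 in that comparison and were not called in edgeR. In Irp1-/- against WT Rab4a was not called (log2 fold change 0.28, adjusted p = 0.438 in edgeR), and its sign was opposite to that of Ccsap. Between the knockouts, where Ccsap was called lower in Irp1-/-, Rab4a was also lower, at -1.11 (adjusted p = 2.34e-06 in edgeR). It was the only 1 of the 10 neighbours called there. By fitted values 8 of the 10 were lower in Irp1-/- and 2 higher, with a median of -0.07, beside 50.6% of all genes lower. The cause was not tested.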

How the data were processed

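RNA-seq counts of testes from 4 WT, 4 Irp1-/- and 3 Irp2-/- mice were analysed. The authors deposited raw read counts per gene, without normalization, from paired-end reads mapped to mm10 within the nf-core RNA-seq workflow; demultiplexing with bcl2fastq 2.20.0.422 and DESeq2 stand in the submitters' processing notes. The counting tool is not given in the sources used here, so whole numbers may be rounded estimates, and reads shared by overlapping genes may be lost or split. Genotypes came from the labels. The letter R or L in the column names is not explained and was not used. Separate animals are assumed from the replicate numbers alone, and if a library repeats an animal the p-values cover technical spread only. All 15 pairs of libraries of 1 genotype differed beyond counting noise (chi-square per degree of freedom 2.00 to 7.05).

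Each pair of genotypes was fitted alone in R 4.3.3 with edgeR 4.0.16 (filterByExpr, TMM, robust quasi-likelihood test, Benjamini-Hochberg adjustment over all genes tested), after a test on simulated data. Standard errors are the fold change divided by the root of its F statistic. The design used no covariate. Alternatives were RLE, library sizes by total count (added after the data were seen), other count filters, DESeq2 1.42.0, 1 fit of all 11 samples, a replicate block, and leaving out each sample.

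The 10 members, the 141 genes of 7 lists and the cell type lists were chosen with earlier results of these data known. Of 24411 symbols, 23194 matched a RefSeq gene by current and 1096 by older symbol, and 13 were ambiguous; positions and start windows are those of RefSeq GRCm38.p6. Named beyond the members were up to 5 called list genes per comparison, the called genes among 5 neighbours on each side of Ccsap and Cdk5rap2, the 3 genes most like Ccsap over the samples, and Aco1 and Ireb2. Clu and Afg3l1 were named after their values were seen. Total counts of 15902473 to 22451417 per sample set the counting precision, which covers neither library preparation nor animals.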

Additional observations from a re-analysis of the deposited data

Results flagged for a closer look

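The difference between the knockouts was tested directly, since both were compared with the same 4 WT testes, and 4 named genes passed at an adjusted p under 0.05 in edgeR. Ccsap differed by -0.28 on the log2 scale, Irp1-/- minus Irp2-/-, with all 4 Irp1-/- testes under all 3 Irp2-/- testes. Of the list genes, Sfi1 differed by -0.44 and Poc1b by -0.17, both lower in Irp1-/-, and Pmfbp1 by 0.18, higher in Irp1-/-. The calls of these 3 list genes were lost when single libraries were left out, and that of Ccsap was kept in all 14 alternatives. Each of the 10 members was also looked at for a single sample far from the rest, in WT and in Irp1-/-, and none of these 20 groups of 4 held one, where chance gives about 1.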

How the results depend on the processing

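The Irp1-/- call of Ccsap held in every alternative run, against WT and against Irp2-/-. Members called in Irp1-/- against WT numbered 1 in the fit of all 11 samples, which lost Cdk5rap2, and 1 to 2 with 1 library left out. List genes called there numbered 0 in the fit of all 11 samples and 0 to 1 with 1 library left out, and all genes called ranged from 55 to 216, lowest without Irp1-/- replicate 1. In Irp2-/- against WT the 1 list gene was lost (0) with RLE, DESeq2 and the fit of all 11 samples, and 0 to 1 were called with 1 library left out, when all genes called ranged from 118 to 223. Between the knockouts 2 members were called in the fit of all 11 samples and by total count, where Pcnt was added (adjusted p in edgeR 0.0346 and 0.0406), and 1 to 2 with 1 library left out. List genes called there ranged from 0 to 5, and all genes called from 414 to 763.

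The replicate numbers were not taken to pair the samples. Samples with the same number had correlations of their deviations from the genotype mean of at most 0.093, under the 0.1 required, although in all 7 pairs over the 3 comparisons the sample of the first genotype correlated best with its own number among the shared numbers, a hint from the data and not from the design. Irp1-/- shares only replicates 1 and 2 with the other genotypes. With a replicate block, 439 genes and 2 list genes were called in Irp1-/- against WT, 0 list genes in Irp2-/- against WT, and 2 members between the knockouts, with Cdk5rap2 added (log2 fold change 0.23, adjusted p in edgeR 0.0101). Under the block the adjusted p in edgeR was 0.327 for Sfi1, 0.0674 for Poc1b and 0.185 for Akap9.

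Members near 0 changed sign. Under the block the log2 fold change of Sass6 was -0.030 and that of Nin -0.0044 in Irp1-/- against WT, that of Sass6 -0.0077 in Irp2-/- against WT and that of Cep135 0.050 between the knockouts. By total count that of Plk4 was 0.0020 in Irp1-/- against WT and that of Sass6 -0.0082 between the knockouts. With 1 library left out, Irp1-/- against WT gave -0.098 to 0.0079 for Cep135, -0.030 to 0.0043 for Plk4, -0.010 to 0.040 for Sass6 and -0.023 to 0.23 for Nin. Irp2-/- against WT gave -0.023 to 0.11 for Cdk5rap2, -0.099 to 0.044 for Cep135, -0.0097 to 0.036 for Sass6 and -0.011 to 0.059 for Cntrob. Irp1-/- against Irp2-/- gave -0.086 to 0.056 for Cep135 and -0.025 to 0.021 for Sass6. The cause of these changes was not tested, beyond the fewer samples that leaving out a library gives. Depth limited Nin, at 24 to 63 reads per sample.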

Other observations

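The 3 Irp2-/- testes did not move as a block for Ccsap and Cdk5rap2. Replicate 1 had the highest Ccsap (131 CPM) and the lowest Cdk5rap2 (289 CPM) of all 11 samples, and replicate 3 the lowest Ccsap of its genotype (114 CPM) beside 349.6 CPM of Cdk5rap2. Within Irp2-/-, Cep135 was also lowest in replicate 1 at 28.8 CPM and highest in replicate 3 at 35.1 CPM, against 31.5 to 35.9 CPM in WT. The elongating spermatid markers summed to between 22467 and 26775 CPM in Irp2-/- and between 26107 and 27276 CPM in WT testes, and all 12 were lower in Irp2-/- on average, with none called in edgeR and 1 at an unadjusted p under 0.05.

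The 12 elongating spermatid markers summed to between 24521 and 28066 CPM in Irp1-/-, a range that holds all WT sums. None was called in edgeR against WT, and 8 of 12 were lower by their fitted values, with a median log2 fold change of -0.058. 4 of 12, or 33.3%, had an unadjusted p under 0.05 in edgeR, all 4 lower, beside 12.1% of all genes tested. The 12 round spermatid markers summed to between 1648 and 1771 CPM in Irp1-/-, between 1655 and 1732 CPM in WT and between 1595 and 1746 CPM in Irp2-/- testes, and the 12 spermatogonial markers to between 176 and 202 CPM over all samples. Macrophage markers, 10 of 10 with reads, summed to between 74.2 and 93.9 CPM, peritubular myoid markers, 8 of 8 with reads, to between 372 and 424 CPM, and the 6 blood markers to between 24.8 and 57.1 CPM.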
